A study of Caenorhabditis elegans with 6 samples.

Results

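The coding sequence calls of wild-type germlines were the A-to-G positions that a single wild-type replicate was enough to place in protein-coding sequence. They were chosen by their own readout: a SAILOR confidence of at least 0.75 in at least 1 of 3 wild-type lists, a coding sequence label, and absence from the merged adr-2(-) list. The rule found 5505 coding calls among 300864 coding positions listed in wild type (1.83%) and 338993 listed positions of any kind. The wild-type group was strain N2 and the control strain BB20, which carries the deletion allele adr-2(ok735). Both were young adult hermaphrodites grown in synchrony at 20 °C, and RNA came from their germlines, with 3 biological replicates each. The number of germlines pooled per replicate is not given in the sources used here.

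A-to-I editing is the deamination of adenosine in double-stranded RNA by enzymes of the ADAR family, and inosine is read as guanosine by reverse transcriptase and by the ribosome. In C. elegans ADR-2 is the active deaminase, and its related protein ADR-1 binds RNA without catalysing the reaction. An edited adenosine in a codon can change the amino acid, whereas most known worm editing lies in duplexes formed by inverted repeats in untranslated regions and introns. A germline lacking ADR-2 therefore serves as a background of A-to-G mismatches that come from sequencing, mapping or variation in the genome.

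Depth differed between the libraries. Whole gene reads recovered from the expression table came to 44991286 for wild-type replicate 1, 96397215 for replicate 2 and 48726973 for replicate 3, and to 33658937 to 38310069 for the mutant libraries. Median coverage of the listed coding positions was 433, 794 and 450 reads in the 3 wild-type lists and 887 in the merged adr-2(-) list. The adr-2 mRNA itself had 3020, 2822 and 2852 normalised counts in N2 germlines, against 29.2, 61.0 and 35.6 in the mutant (log2 change -6.15 ± 0.24 SE, limma, adjusted p = 5.45e-06). All 9 germline markers on the list were found, with summed wild-type levels of 452937 to 475129 normalised counts, against 44 to 411 for 7 sperm markers, 1958 to 2796 for 5 gonadal sheath and muscle markers, 1242 to 2132 for 6 intestinal markers, 4247 to 4414 for 4 neuronal markers and 415 to 622 for 4 hypodermal markers. A single gene carried most of the neuronal sum (4072, with a median of 98.2 per gene) and of the hypodermal sum (525, with a median of 0.98). No marker found was at 0 in all wild-type libraries. The part of other tissues in the coding calls was not tested.

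Almost all coding calls belonged to a single replicate. Of the 5505, 5485 (99.6%) reached the minimum in 1 replicate, 16 in exactly 2 and 4 in all 3. The recurring calls were thus 20 (0.363%, 95% exact interval 0.222% to 0.561%), in 14 genes, and 7 of them were in orc-2, which encodes a subunit of the origin recognition complex that licenses DNA replication. At any confidence 223 coding calls were listed in at least 2 replicates and 19 in all 3. The same rule applied to 3′ UTRs gave 3488 calls, of which 1506 (43.2%) recurred and 880 were in all 3 replicates.

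The replicates contributed 1667, 1760 and 2102 coding calls, and their depth was low. Their median coverage was 26 reads in replicate 1, 20 in replicate 2 and 29 in replicate 3, far under the median of the coding positions listed there. A call needs few edited reads where coverage is low, because the confidence is the probability that the edited share exceeds 1%. With 1 edited read the minimum was reached at up to 29 reads, with 2 at up to 97, with 3 at up to 173 and with 4 at up to 254. Calls with 1 edited read numbered 871 (52.2%) in replicate 1, 1258 (71.5%) in replicate 2 and 965 (45.9%) in replicate 3. Coding calls with 2 or more edited reads numbered 796, 502 and 1137, at median coverages of 137, 82 and 139 reads.

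Edited shares were low as well. The median edited share of the coding calls was 4.76%, 5.56% and 4.17% in replicates 1, 2 and 3, and those with at least 2 edited reads had medians of 2.78%, 3.04% and 2.63%. A share of at least 20% at a coverage of at least 20 reads was reached by 4, 2 and 8 coding calls. In no coding call were all reads edited. 3′ UTR calls had higher shares, with medians of 15%, 12.5% and 14.3%, and 200, 313 and 239 of them had 1 edited read.

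**Figure D1:**
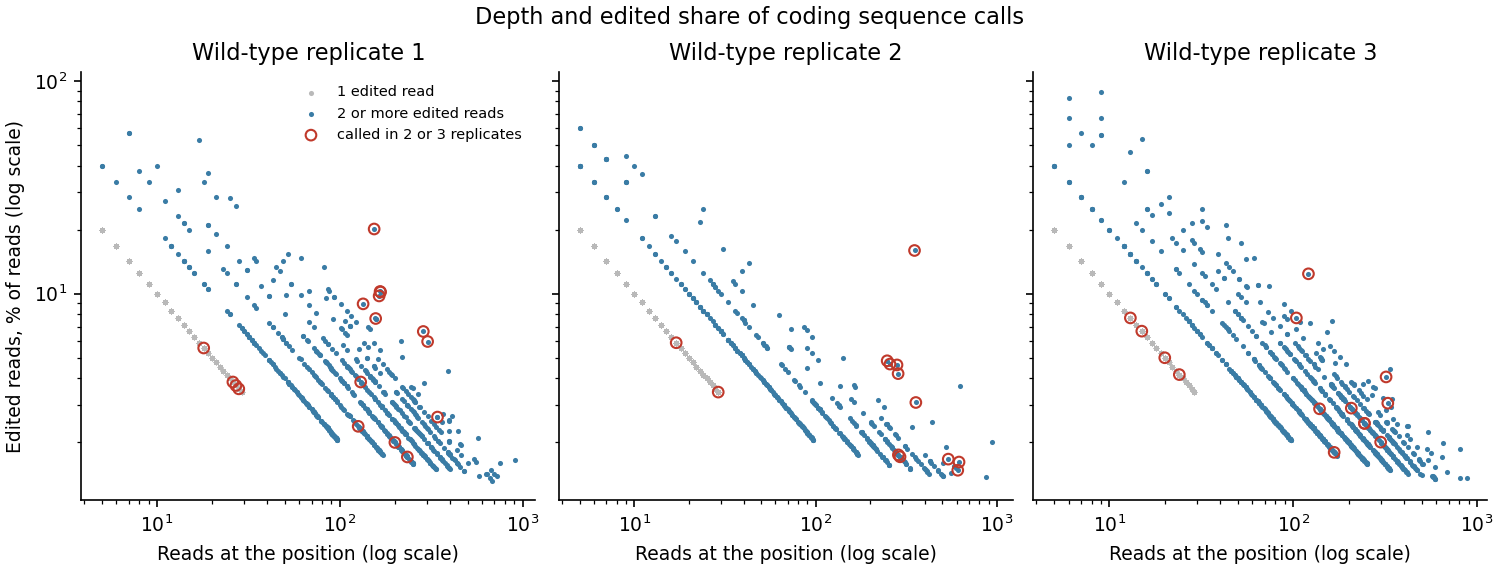
Each point is a coding call in the replicate named above the panel, with the reads at the position on the horizontal axis and the edited share in percent on the vertical axis, both on log scales. Points fall on lines of equal edited reads, the grey line being 1 edited read, which ends at 29 reads, and the red circles are the calls made in 2 or 3 replicates.

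At the edge of the rule the values were nearly equal. C54G4.7, F23H11.2 and R05D3.8 lay just inside, each with 2 edited of 97 reads, and 10 coding calls had that same lowest confidence. F25H9.6, T23H2.3 and eel-1 lay just outside, each with 3 edited of 174 reads.

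The replicates that did not choose a call gave an independent reading of it. Of the coding calls chosen on replicate 1 alone, 111 of 1667 (6.66%) were listed at any confidence in another wild-type replicate. Of those chosen on replicate 2, 24 of 1760 (1.36%) were, and of those chosen on replicate 3, 112 of 2102 (5.33%). The mean was 4.45% ± 2.75 (SD, n = 3) for coding calls and 71.8% ± 8.46 (SD, n = 3) for 3′ UTR calls, and every 3′ UTR value lay above every coding value. The difference of 67.3 percentage points had an exact two-sided permutation p of 0.1, the smallest that 3 values against 3 can give. Each of 8 such comparisons gave this permutation p, and it is 0.1 after Benjamini-Hochberg adjustment over them. Every choosing replicate gave both a coding and a 3′ UTR value, and the test ignored this pairing. With each gene counted once, the means were 4.36% and 20.2% and the difference 15.9 points.

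Calls with more edited reads were found again more often, but still seldom in coding sequence. Among coding calls with 1 edited read 0.727% ± 0.773 (SD, n = 3) were listed again, among those with at least 2 edited reads 8.69% ± 3.96, and among those with at least 4 edited reads 13% ± 3.7. The corresponding 3′ UTR means were 13.3%, 80.4% and 86.9%. At the confidence minimum itself, 0.808% ± 0.187 (SD, n = 3) of coding calls and 67.5% ± 8.08 of 3′ UTR calls were reached again.

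**Figure D2:**
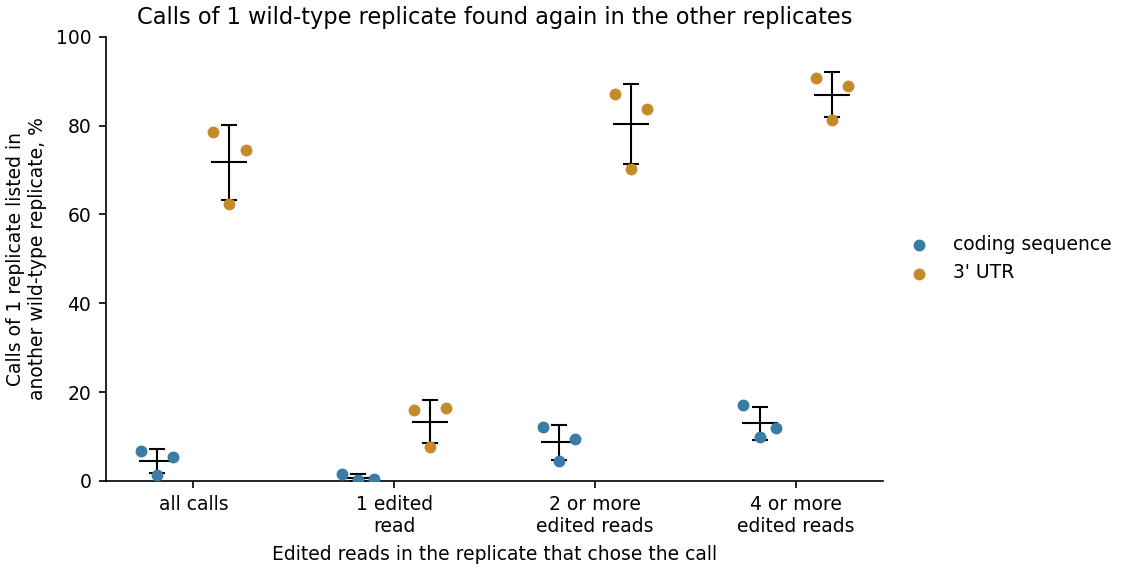
Percent of calls chosen on a single wild-type replicate that are listed at any confidence in another wild-type replicate, for coding sequence (blue) and 3′ UTR (ochre), by edited reads in the choosing replicate. Each point is 1 choosing replicate and bars are the mean ± SD of 3. The coding means run from 0.727% to 13% and the 3′ UTR means from 13.3% to 86.9%.

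Coding calls chosen on replicates 1 and 3 that were listed again mostly had a lower share there. Those chosen on replicate 2, the deepest library, were fewer and went both ways. Of 90 calls of replicate 1 that replicate 2 also listed, 89 had a lower share in replicate 2, with a median of 0.414% against 2.46%. Of 84 calls of replicate 3 listed in replicate 2, 83 were lower there, with a median of 0.422% against 2.25%. Between replicates 1 and 3, 29 of 35 calls of replicate 1 were lower in replicate 3, and 34 of 39 calls of replicate 3 were lower in replicate 1. Of the calls of replicate 2, 5 of 14 were lower in replicate 1, with a median of 6.30% against 2.36%. Most of these 14 lay in orc-2, where neighbouring sites are covered by overlapping reads. In replicate 3, 9 of 15 were lower, with a median of 2.22% against 1.88%. The share took part in choosing a call, so the choosing values are given as a description.

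An unlisted position has no coverage of its own in these lists, and the nearest listed position within 50 nt on the same strand was used as a stand-in for depth. Of the coding calls with at least 2 edited reads that were not listed in replicate 2, 57.0% had such a position deep enough that the upper limit for 0 edited reads (3 reads over the coverage) was below the share that chose the call. The figure was 21.9% for replicate 1, 22.5% for replicate 3 and 52.5% for the merged adr-2(-) list. For coding calls with 1 edited read it was far lower, at 4.99% for replicate 2, 0.676% for replicate 1 and 0.754% for replicate 3. The merged adr-2(-) list gave 4.92% for these calls. For the remaining coding calls absence from another list could not be told from lack of depth.

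The call with the highest share of those in all 3 replicates lay in slc-30A5, named as a member of a zinc transporter family. At position 14361180 of chromosome I (plus strand) 31 of 154 reads were edited in replicate 1, 56 of 351 in replicate 2 and 15 of 121 in replicate 3, which is 20.1%, 16.0% and 12.4%. It lies at codon position 3, 67 nt inside its coding segment, and no other coding call lay within 3675 nt. No position within 50 nt was listed in adr-2(-), so the depth there is not known. Each replicate in turn was taken as the one that chose the site, and the other 2 were compared. The 3 shares were not separated in these tests (Fisher's exact test, lowest adjusted p = 0.302). All 3 replicates reached the minimum here, so the replicates compared had also passed the rule.

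The other coding calls made in all 3 replicates were in orc-2 on chromosome II (plus strand). At 10876264, the first base of a codon, the share was 8.96% of 134 reads, 1.75% of 286 and 1.80% of 167 in replicates 1, 2 and 3. At 10876428, at codon position 3, it was 6.64%, 1.48% and 2.46% of 286, 608 and 244 reads. At 10876429, the first base of the next codon, it was 5.96%, 1.62% and 2.46% of 302, 618 and 244 reads. Replicate 1 was the highest at all 3 positions. Absence from the adr-2(-) list was part of the rule and is no result. Positions 1 to 25 nt away had 321 to 730 reads there, a depth at which 0 edited reads allow a share of up to 0.411% to 0.935%.

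Most orc-2 coding calls lay in 2 groups along the transcript. The gene had 22 coding calls, more than any other gene, of which 19 were in the groups, and none of the 22 had only 1 edited read in the choosing replicate. A first group of 10 spanned 81 nt from 10876248 to 10876328, and the other 9 spanned 34 nt from 10876396 to 10876429. Within the first group 4 further calls were made in replicates 1 and 2. At 10876278 the shares were 7.64% and 4.63%, at 10876279 they were 9.76% and 4.21%, at 10876290 they were 10.2% and 4.67%, and at 10876296 they were 10.2% and 4.84%. Replicate 3 had 2 edited of 165 reads at 10876278 and listed none of the other 3, where a position 1 to 18 nt away had 165 reads and 0 edited reads allow up to 1.82%. Neighbouring sites are covered by overlapping reads and are not independent of each other.

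**Figure D3:**
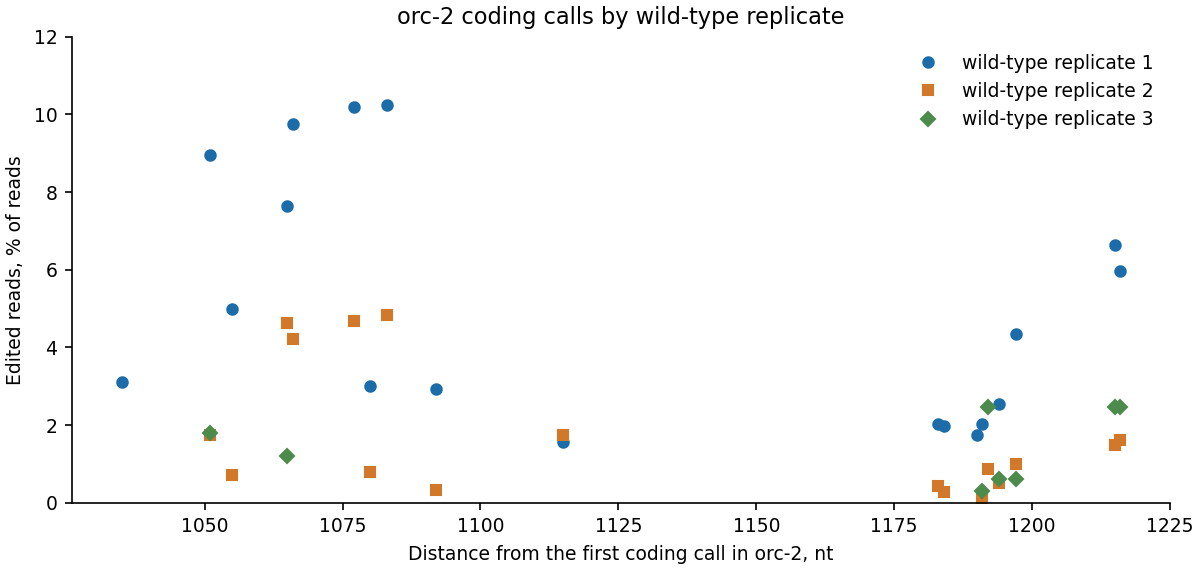
Edited share in percent of reads of the 19 orc-2 coding calls of the 2 groups, against distance from the first coding call of the gene, in every wild-type replicate that lists the position at any confidence. Replicate 1 (circles) reaches 10.2%, replicate 2 (squares) 4.84% and replicate 3 (diamonds) 2.47%.

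The size of the share at orc-2 differed between replicates by more than counting error. Each replicate in turn was taken as the one that chose a site, and the other 2 were compared. At a site called in more than 1 replicate, a compared replicate had thus also passed the rule. Fisher's exact test, adjusted over 3409 such comparisons at sites of any kind, called 477 of them (14.0%). Of 30 tests at 19 coding sites it called 6, at 4 orc-2 sites and in phac-1. At 10876428 replicate 1 exceeded replicate 2 (19 of 286 against 9 of 608 reads, adjusted p = 0.00268), and at 10876264 it exceeded replicates 2 and 3 (adjusted p = 0.0126 and 0.0467). Replicates 2 and 3 were not separated at any orc-2 site tested (lowest adjusted p = 0.212). Only sites listed in both replicates of a pair entered a test. At 10876279, 10876290 and 10876296 replicate 2 had 12 of 285, 12 of 257 and 12 of 248 edited reads. Replicate 3 listed none of them, so they were not tested between replicates 2 and 3. In phac-1, at 9291894 of chromosome I (minus strand), 10 of 327 reads were edited in replicate 3 and 3 of 541 in replicate 2 (adjusted p = 0.0475). These tests compare libraries and cover counting error only.

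The remaining calls in 2 replicates lay in separate genes, and the M04B2.4 call had another coding call 12 nt away. In M04B2.4 (chromosome IV, 11520184, minus strand) 11 of 357 reads were edited in replicate 2 and 8 of 104 in replicate 3, that is 3.08% and 7.69%. aka-1, which is named as an A-kinase anchor protein, had 4 of 234 edited reads in replicate 1 and 13 of 320 in replicate 3 at 7476792 of chromosome II. ergo-1, an Argonaute of the endogenous small RNA pathway, had 5 of 130 and 4 of 139 edited reads in replicates 1 and 3 and 1 of 312 in replicate 2 at 1009202 of chromosome V. vps-16, a subunit of the complexes that tether endosomes and lysosomes, had 4 of 200 in replicate 1 and 6 of 207 in replicate 3 at 6435804 of chromosome III. W08G11.3 had 9 of 539 in replicate 2 and 6 of 299 in replicate 3 at 16370946 of chromosome V. pelo-1, whose relatives rescue stalled ribosomes, had 3 of 126 in replicate 1 and 5 of 292 in replicate 2 at 4203826 of chromosome III. phac-1 had 9 of 342 in replicate 1.

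In the last 5 genes the call rested on 1 edited read in each choosing replicate. They were bicd-1 (18 and 13 reads), a homologue of the dynein adaptor Bicaudal D, eri-12 (27 and 24), mrpl-49, a mitochondrial ribosomal protein (29 and 20), pes-5 (26 and 15) and vang-1, of the planar polarity pathway (28 and 17). Requiring 2 edited reads in each replicate left 15 recurring calls. Of all 20 recurring calls 4 were at codon position 1, 5 at position 2 and 11 at position 3, and none overlapped an annotated UTR or a gene on the other strand.

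Codon position separated coding calls little from the other coding positions listed. Codon positions 1, 2 and 3 held 28.5%, 38.0% and 33.5% of 5490 coding calls and 29.9%, 37.9% and 32.2% of the other listed coding positions. Calls within 5 nt of an end of a coding segment made up 4.69%, against 4.06%. The reference annotation placed 5499 of the coding calls (99.9%) inside a coding segment of the named gene, with 174 that also overlapped a UTR of another transcript and 132 that overlapped a gene on the other strand.

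The coding calls were mostly scattered. A neighbour within 50 nt was present for 620 of 5505 (11.3%), and the median distance to the nearest coding call was 1249 nt, whereas 78.9% of 3′ UTR calls had such a neighbour and their median distance was 3 nt. No coding call lay within 50 nt of a non-coding site called in all 3 replicates, and 7 lay within 907 nt of one. The nearest were in lem-2, which encodes a LEM-domain protein of the inner nuclear membrane (7 of 430 reads in replicate 3, 360 nt away), and in scyl-1 (4 of 224 reads, 411 nt away). Genes with such non-coding sites held 32 coding calls in 18 genes, of which ssl-1 had 5, and no recurring call was among them.

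A minority of the coding calls were packed into short runs, in which nearly the same number of reads was edited at every position. A run was taken as 3 or more coding calls of the same replicate, each within 50 nt of the next and with at least 2 edited reads. Replicate 1 had 12 runs with 76 calls, replicate 2 had 8 with 43 and replicate 3 had 14 with 59, which is 9.55%, 8.57% and 5.19% of their coding calls with at least 2 edited reads. The merged adr-2(-) list had 290 coding calls with at least 2 edited reads that were absent from wild type. Of these, 0 lay in a run, which would allow a share of up to 1.03% if calls were independent. Calls of a run are not independent, so this limit is too narrow. Runs on the adr-2(-) list could be diluted by the merging. When the share in the confidence formula was divided by 3 for that list, it had 2222 such calls and 3 runs of 3 sites, in atl-1, col-80 and ubr-1 (0.405%). With 1 merged list for the mutant there is no test of this difference.

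**Figure D4:**
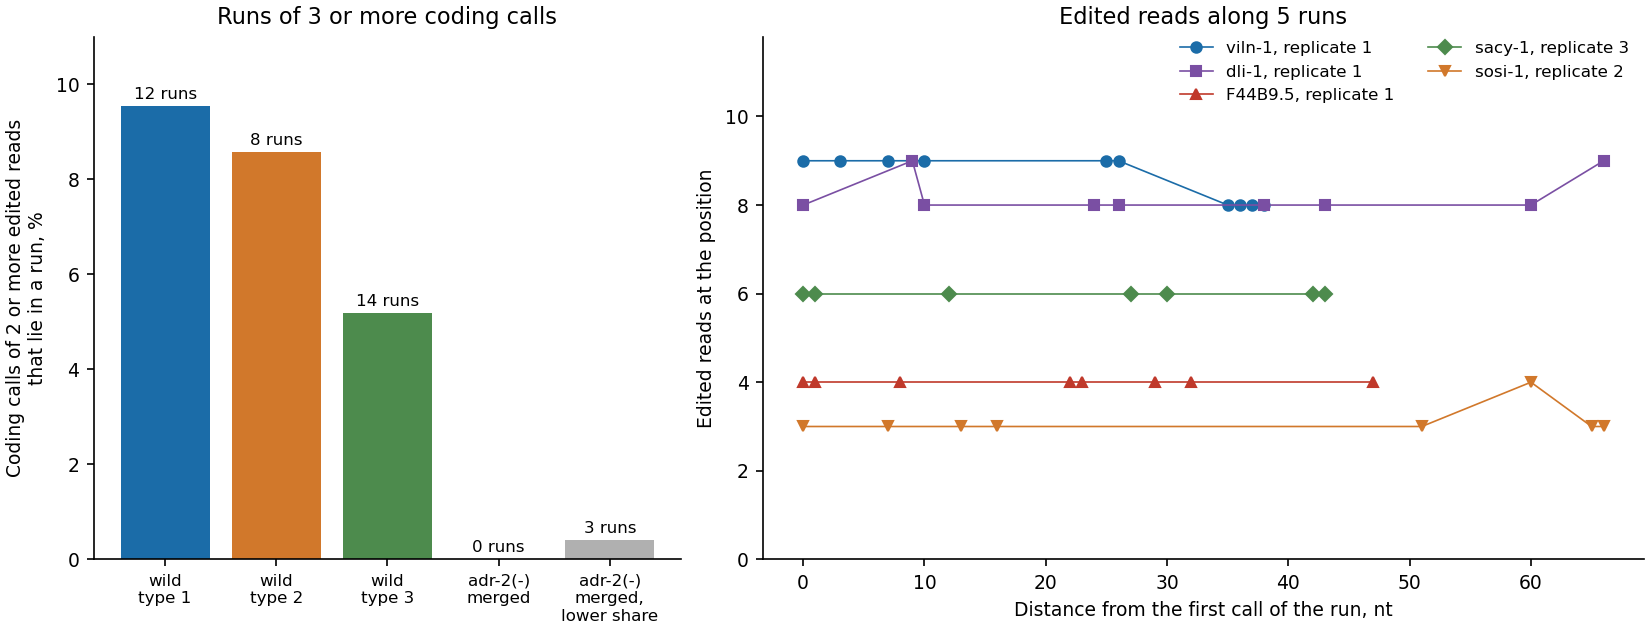
Left, percent of coding calls with at least 2 edited reads that lie in a run of 3 or more, for each wild-type list, for the merged adr-2(-) list and for that list with the share in the confidence formula divided by 3, with the number of runs above each bar. Right, edited reads at each call of 5 runs against distance from the first call of the run. Wild-type lists have 8 to 14 runs and the adr-2(-) list 0, and edited reads along each run shown stay within 1 of each other.

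The longest run outside orc-2 was in viln-1, which is named for its villin domain. In replicate 1 it held 10 calls in 39 nt of chromosome I (4759100 to 4759138), with 8 or 9 edited reads at each and 86 to 122 reads of coverage (7.08% to 10.5%). Replicate 2 listed a single one of these positions, with 1 edited of 249 reads, and replicate 3 listed none. dli-1, a dynein light intermediate chain, had 9 calls in 67 nt in replicate 1, each with 8 or 9 edited reads of 192 to 266. F44B9.5 had 8 calls in 48 nt with exactly 4 edited reads at each. In replicate 3, sacy-1, a DEAD-box helicase that acts in oocyte meiotic maturation, had 7 calls in 44 nt with 6 edited reads at each, of 265 to 314. In replicate 2, sosi-1 had 8 calls in 67 nt with 3 or 4 edited reads of 6 to 9, or 33.3% to 50%.

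Runs of this kind lay in 31 genes, and orc-2 was the only gene with a run in more than 1 replicate. Of the 34 runs, 18 had the same number of edited reads at every site and 27 differed by at most 1, and these 27 were among the 30 runs outside orc-2. In 24 runs no site was listed in either of the other wild-type replicates. In 20 runs no listed position within 50 nt, members or not, had more than 1 edited read in those replicates or in adr-2(-). On the adr-2(-) list the members themselves are absent by the rule. Some of the 20 runs, such as those in C26D10.3, elmd-1 and sosi-1, had no listed position nearby in any other library. For such runs the depth elsewhere is not known. Other genes with runs were dnj-15 (7 calls with 5 edited reads each, replicate 1), elmd-1 (8 calls with 2 each, replicate 3), rmh-1, which acts in meiotic recombination (3 calls in 7 nt with 5 each, replicate 3), and cfp-1, a component of the complex that methylates histone H3 at lysine 4 (3 calls with 7 to 9, replicate 2). In Y73F8A.26, 3 calls of replicate 3 had 5 or 6 edited reads of 9 to 16 (37.5% to 55.6%). Among 3′ UTR calls there were 75, 86 and 84 runs with at least 2 edited reads at every site, and 6, 5 and 12 of them kept within 1 edited read. These 3′ UTR runs held 1048, 1170 and 871 calls. They were not matched to the coding runs in length or in edited reads, on which the spread within a run depends. The lists do not tell whether edited reads of a run came from 1 RNA molecule or several, and removal of duplicate reads is not given in the sources used here.

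Equal counts were also taken over all neighbours. Most of these pairs lay in the runs above, so they are not a separate result. Where both of a pair of adjacent coding calls within 50 nt had at least 4 edited reads, the edited reads were identical in 38 of 55 pairs (69.1%) in replicate 1, 7 of 17 (41.2%) in replicate 2 and 35 of 46 (76.1%) in replicate 3. For 3′ UTR calls the shares were 8.54%, 4.90% and 9.11%. Coding and 3′ UTR pairs were not matched in edited reads, on which equality depends.

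Of the 5 calls of a single replicate with the most edited reads, 2 were listed in no other replicate and 3 were listed elsewhere with fewer edited reads. dcaf-13 had 23 of 622 edited reads in replicate 2 (3.70%) and no listed read in the other replicates, where positions 6 and 8 nt away had 227 and 242 reads. dao-5 had 19 of 945 in replicate 2 (2.01%). dab-1, a Disabled adaptor protein, had 15 of 806 in replicate 3 (1.86%) and 4 of 1321 in replicate 2. hsr-9, a relative of the DNA damage protein 53BP1, had 15 of 903 in replicate 1 (1.66%) and 1 of 1741 and 1 of 925 in replicates 2 and 3. In orc-2, position 10876410 had 17 of 391 in replicate 1 (4.35%), 8 of 798 in replicate 2 and 2 of 320 in replicate 3. The highest shares at 20 reads or more were in fbxa-107 (6 of 21 reads, replicate 3), seld-1 (6 of 21, replicate 1), C26D10.3 (7 of 25 and 7 of 27 at positions 12 nt apart, replicate 1) and F13C5.2 (8 of 32, replicate 3), and none of these 5 positions was listed in another replicate.

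The coding calls fell in 3020 genes, of which 1882 had 1 call, 169 had 5 or more and 26 had 10 or more. The 26 genes held 347 calls and had a median coding length of 7302 nt, against 1482 nt for all genes with a coding call. After orc-2, whose coding length is 1290 nt, the most calls were in dpy-22 and sma-1, with 21 and 20. dpy-22 and let-19 (17 calls) encode subunits of the Mediator kinase module, sma-1 encodes a heavy spectrin, vab-10 (17) a spectraplakin, cdh-4 (17) a Fat-like cadherin and tln-1 (14) talin. F39C12.1 (17), pqn-15 (13) and Y32H12A.8 (13) completed the 10, and unc-70 and lrk-1 also had 13 calls but no more edited reads than these. In the 10 without orc-2, 9 to 18 of the calls had 1 edited read, and the calls per kilobase of coding length were 1.1 to 2.0, against 17.1 in orc-2.

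The rule ties the kind of call to depth, because 1 edited read reaches the minimum only at up to 29 reads. Levels of expression by kind of call or gene family are therefore a description. The genes of coding calls with 1 edited read had a median of 308 normalised counts per gene, and those of calls with at least 2 edited reads 3807. Cytosolic ribosomal proteins, with a median of 76265 normalised counts per gene, had 0 coding calls at 5724 listed coding positions of 80 genes. Among 23 P granule and germline RNA-binding genes, 10 coding calls were made at 3018 listed positions, in fbf-2, gld-3, glh-2 and glh-4, while vitellogenins had 15 at 21 listed positions, collagens 46 at 132 and F-box proteins 50 at 404. Translation elongation factors had 4 at 938 listed positions, all in eef-1B.2, histones 5 at 124, heat shock proteins 3 at 1766, tubulins 1 at 733 and actins 1 at 178. Major sperm proteins had 7 at 10, in 6 genes. Over all genes the share was 1.83%. None of these lists held a recurring coding call, and names of mitochondrially encoded proteins were not matched. Mitochondrial DNA held 3 coding calls at 692 listed coding positions.

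The X chromosome, which is transcribed weakly in the germline, carried 1216 coding calls (22.1%) but 1.26% of the listed coding positions. There were 32.1 coding calls per 100 listed coding positions on X and 1.30 to 1.62 on the autosomes. Median coverage at listed coding positions was 59 reads on X and 561 to 622 on the autosomes, and 84.0% of the coding calls on X had 1 edited read, against 43.4% to 61.8%. X had a single recurring call, in vang-1. The part of depth in this difference was not tested.

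**Figure D5:**
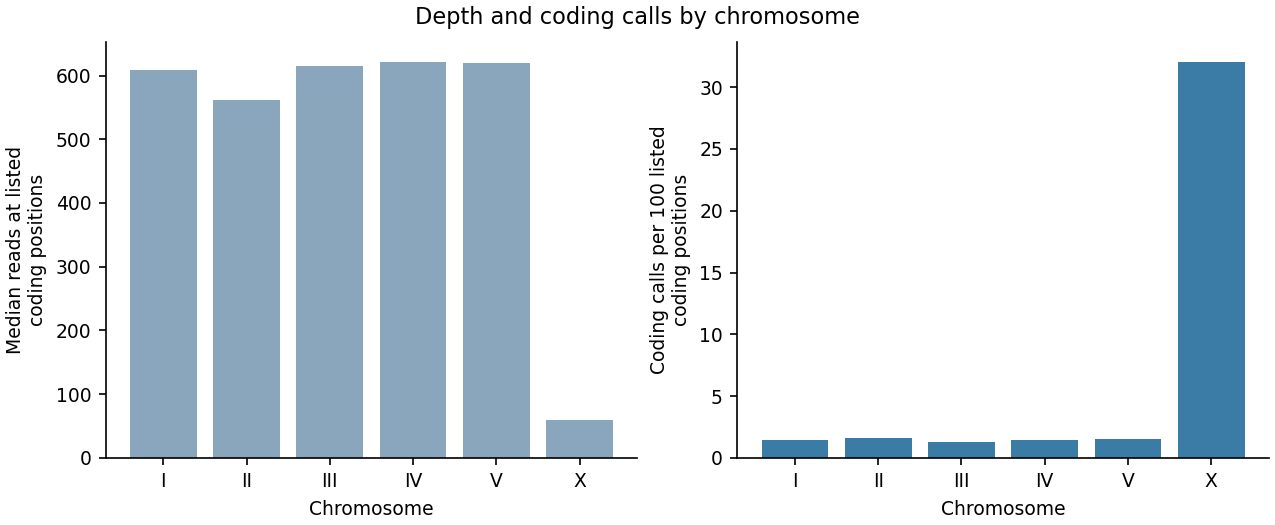
Median reads at coding positions listed in any wild-type replicate (left) and coding calls per 100 such positions (right), by chromosome. X has 59 reads and 32.1 calls per 100 positions, and the autosomes 561 to 622 reads and 1.30 to 1.62 calls.

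The adr-2(-) list gave coding calls of its own when the rule was turned round. It had 1713 coding positions at the confidence minimum, of which 1677 were absent from all wild-type lists, within the 1667 to 2102 coding calls of a single wild-type replicate. 82.7% of the 1677 had 1 edited read. In 3′ UTRs it had 255 such calls, against 1663 to 2501 per wild-type replicate. The adr-2(-) list is merged and the removal used 3 wild-type lists against 1, so the counts are set side by side without a test.

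Expression of genes with coding calls was compared between adr-2(-) and wild type. limma called 29 of 9779 genes tested (0.297%), 20 higher (0.205%) and 9 lower (0.0920%) in adr-2(-). Of the 14 genes with recurring coding calls 0 were called, 3 had an unadjusted p under 0.05 (1227 of all 9779 genes tested did), and edgeR and DESeq2 also called 0. Their median log2 change was -0.02, against 0.00 over all genes tested. The wild-type replicates had 4141, 4114 and 3859 normalised counts of orc-2 mRNA, and the adr-2(-) replicates 4442, 4456 and 4495. The log2 change of 0.15 ± 0.06 (SE) did not pass (limma, adjusted p = 0.361). Those of slc-30A5 were 6861, 6697 and 6838 in N2 germlines and 6298, 6226 and 7259 without ADR-2, with overlapping groups and a log2 change of -0.05 ± 0.07 (SE, limma, adjusted p = 0.819).

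Of 2931 genes tested that had a coding call 8 (0.273%) were higher in adr-2(-) and 0 lower, near the 0.297% of all genes tested. The median log2 change of the 2931 genes was 0.01. The 8 were cls-3 (log2 change 3.78), Y73B6BL.12 (2.80), dlk-1 (1.70), WBGene00010964 (1.45), seld-1 (0.91), F43G9.13 (0.77), H05C05.2 (0.66) and Y59C2A.3 (0.62). cls-3, of the CLASP family of microtubule-binding proteins, averaged 294 normalised counts in wild type and 4019 in adr-2(-) (log2 change 3.78 ± 0.19 SE, limma, adjusted p = 3.27e-05). DESeq2 on recovered reads called 26 genes with a coding call of 127 genes in all and edgeR 5 of 19, and leaving out each library in turn left 1 to 11 of 8 to 64. Of the 31 genes with a run 29 were tested, and 0 were called (8 with an unadjusted p under 0.05 in limma, against 1227 of all 9779).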

How the data were processed

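RNA sequencing was performed on dissected germlines of 3 wild-type and 3 adr-2(-) biological replicates, with poly(A) selection and a stranded kit. Per the labels and the study's methods, reads were aligned to WS275 with STAR 2.7.10b, and SAILOR listed A-to-G positions for each wild-type replicate. The adr-2(-) list was deposited merged, and how it was merged is not given in the sources used here. Each deposited position holds a coverage field (reads, change and fraction edited) and a confidence score. Edited reads were coverage times fraction. The deposited expression table holds gene counts divided by size factors (a normalised signal), with DESeq2 fold changes and p-values of the authors that were not used. Coding calls were positions labelled as coding sequence with a confidence of at least 0.75 in at least 1 wild-type list and on the adr-2(-) list at no confidence.

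Replicates were compared with exact permutation tests that took the values as unpaired, and sites with Fisher's exact test (SciPy 1.17.1). Expression used limma 3.58.1 on log2(normalised count + 1) for genes with a mean of at least 10, p-values adjusted by Benjamini-Hochberg over every gene that entered, and calls at an adjusted p of at most 0.05 and a log2 change of at least 0.5. edgeR 4.0.16 and DESeq2 1.42.0 were run on whole reads recovered from the table. 100% of values came out whole within 0.01 read, and totals were 33658937 to 96397215 reads. Annotation was Ensembl release 115. The limma fit and the Fisher tests were tested on simulated data. Fisher tests had been planned for all pairs of replicates, but reads that chose a site entered that version. The version printed takes each replicate in turn as the one that chose and compares the others, which may also have passed the rule.

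The members and gene lists were chosen with earlier results of these data known. Named genes were the sites called in at least 2 replicates, the 10 genes with the most calls, the 5 sites of 1 replicate with the most edited reads and the 5 with the highest share at 20 reads or more, and the 3 calls on either side of the minimum. The comparison of runs was added after the values were seen. Intervals cover counting error only.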

Additional observations from a re-analysis of the deposited data

How the results depend on the processing

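The share of calls found again kept its direction under all 13 alternatives, with differences of 15.9 to 77.7 points. The 20 recurring coding calls became 64 at a confidence minimum of 0.5, 11 at 0.9 and 7 at 0.99, 31 when adr-2(-) positions were removed only at the minimum, and 35 when none were removed. Without each replicate in turn the recurring calls numbered 7 to 11, 7 of them without replicate 1, and each omission leaves 2 replicates in which a call can recur. Fisher tests past the threshold at coding sites fell from 6 to 3 with a chi-square test, and to 0 to 3 without each replicate, 0 without replicate 1. The 34 coding runs numbered 20 to 26 without each replicate, the fewest without replicate 3. All genes called by limma numbered 29, against 19 with edgeR and 127 with DESeq2, and 8 to 64 without each library. With a replicate block 25 genes were called, of which 7 had a coding call and 0 a recurring call. Deviations of same-numbered libraries had correlations of 0.03, -0.22 and 0.38, and those of different-numbered libraries ran from -0.38 to 0.42. Same-numbered libraries are therefore not treated as paired. Depth limits calls at unlisted positions, for which the lists give no coverage.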

Other observations

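Before removal, 5894 coding positions reached the minimum in a wild-type replicate, and 389 of these were on the adr-2(-) list. Only 22 of the 389 reached the minimum there, and the median adr-2(-) coverage at the 389 was 591 reads.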
